A study of Mus musculus with 12 samples.

Results

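Macrophages, microglia and monocytes carry a shared set of identity genes, and 43 of them were followed here across 4 cell populations whose labels give CD4+ or CD4hi. The members were named gene by gene (surface receptors, lysosomal and granule proteins, NADPH oxidase subunits, transcription factors and enzymes). No cutoff on a measured value was used, but earlier results of these data were known when the members were chosen. They make up 43 of the 18193 genes read on the arrays, and 80 of the 45037 probe sets name one of them. Each gene was read from the probe set with the highest mean over the 12 arrays.

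RNA of mouse cells of the C57BL/10.RIII background was hybridised to Affymetrix Mouse430_2 arrays, which carry short 3′ biased probes. The labels separate 4 cell types by surface markers, with 3 arrays each and 12 in all. The iFoxA1Treg group is labelled as FoxA1Treg cells induced by interferon beta, CD4hi and PD-L1hi. The nFoxA1Treg group is titled as neuron induced, named natural in its cell type field, and is CD4hi and PD-L1hi by its label too. The Treg group is labelled CD4+ and TGFbeta+, and the EncT group holds encephalitogenic T cells labelled CD4+, the cells that drive autoimmune inflammation of the central nervous system. The labels give neither age nor sex, and nothing in them says that the 3 arrays of a group came from separate animals or cultures, so a p-value covers the spread among these arrays alone, and that spread may be technical.

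Macrophages and monocytes are phagocytes that arise from myeloid progenitors under the transcription factors PU.1 (from Spi1) and C/EBPα (from Cebpa), while microglia are the resident macrophages of the brain. They bind particles and dying cells through scavenger and pattern receptors, digest them with lysosomal proteases, and make superoxide with the NADPH oxidase. In autoimmune inflammation of the central nervous system these cells enter or line the lesions that CD4 T cells start, and CD4 T cells themselves are not known for this programme.

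Levels are on a log2(value + 16) scale after quantile normalization, on which 4 means no signal. The offset of 16 shrinks the differences of genes near that floor, and a fold is a ratio of value + 16, smaller than the ratio of the signals themselves. A member was called where limma's adjusted p (Benjamini-Hochberg over all 18193 genes) was under 0.05.

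The 12 arrays had similar medians, 4.64 to 4.84 on the deposited log2 scale, and no pair held identical values. Arrays of one group correlated at Pearson r of 0.828 to 0.857 over all probe sets, and the arrays labelled iFoxA1Treg correlated with the others at 0.683 to 0.739. The label of that group was checked on Cd4, the co-receptor it names. Cd4 averaged 5.13 ± 0.056 in the arrays labelled iFoxA1Treg and 10.59 ± 0.017 in EncT (SD, n = 3 each), which goes against the label CD4hi, and all 13 measured T cell markers were lower there (limma, adjusted p under 0.05). Every direction given for this group is that of the arrays so labelled.

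Most members were called higher in the arrays labelled iFoxA1Treg than in each of the other 3 groups. Ctss, Ctsb, Ctsd, Cyba, Ncf4 and Cd47 read well above the floor in every group. Against EncT, limma called 31 of the 43 members higher (30.0% of all genes were) and 5 lower (29.5% of all genes). Against nFoxA1Treg it called 32 higher and 4 lower, beside 30.7% and 30.5% of all genes. Against Treg it called 32 higher and 4 lower too, beside 30.8% and 29.8% of all genes. The 3 comparisons share the arrays labelled iFoxA1Treg. The median difference of the members was 2.75 against EncT, 3.03 against nFoxA1Treg and 3.03 against Treg, where the medians over all genes were 0.015, 0.012 and 0.010. In each of the 3 comparisons 29 members were called at 2-fold or more higher, and the share of all genes at that limit was not taken. The arrays of the 2 groups did not overlap for 31 members that were higher and 4 that were lower against EncT (32.0% and 31.0% of all genes). The counts were 33 and 5 against nFoxA1Treg (33.4% and 33.0% of all genes), and 32 and 5 against Treg (33.4% and 32.7%).

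Added up as linear signal above the floor, the 43 members reached 72038 to 73158 units in the arrays labelled iFoxA1Treg, 13035 to 14087 units in nFoxA1Treg, 13836 to 14045 units in Treg and 14040 to 16396 units in EncT. No member was under 1 unit in an array labelled iFoxA1Treg, while 3 to 7 members were in a nFoxA1Treg array, 2 to 4 in a Treg array and 0 to 1 in an EncT array. Fewer cells of a type and less RNA per cell cannot be told apart in such bulk samples.

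**Figure D1:**
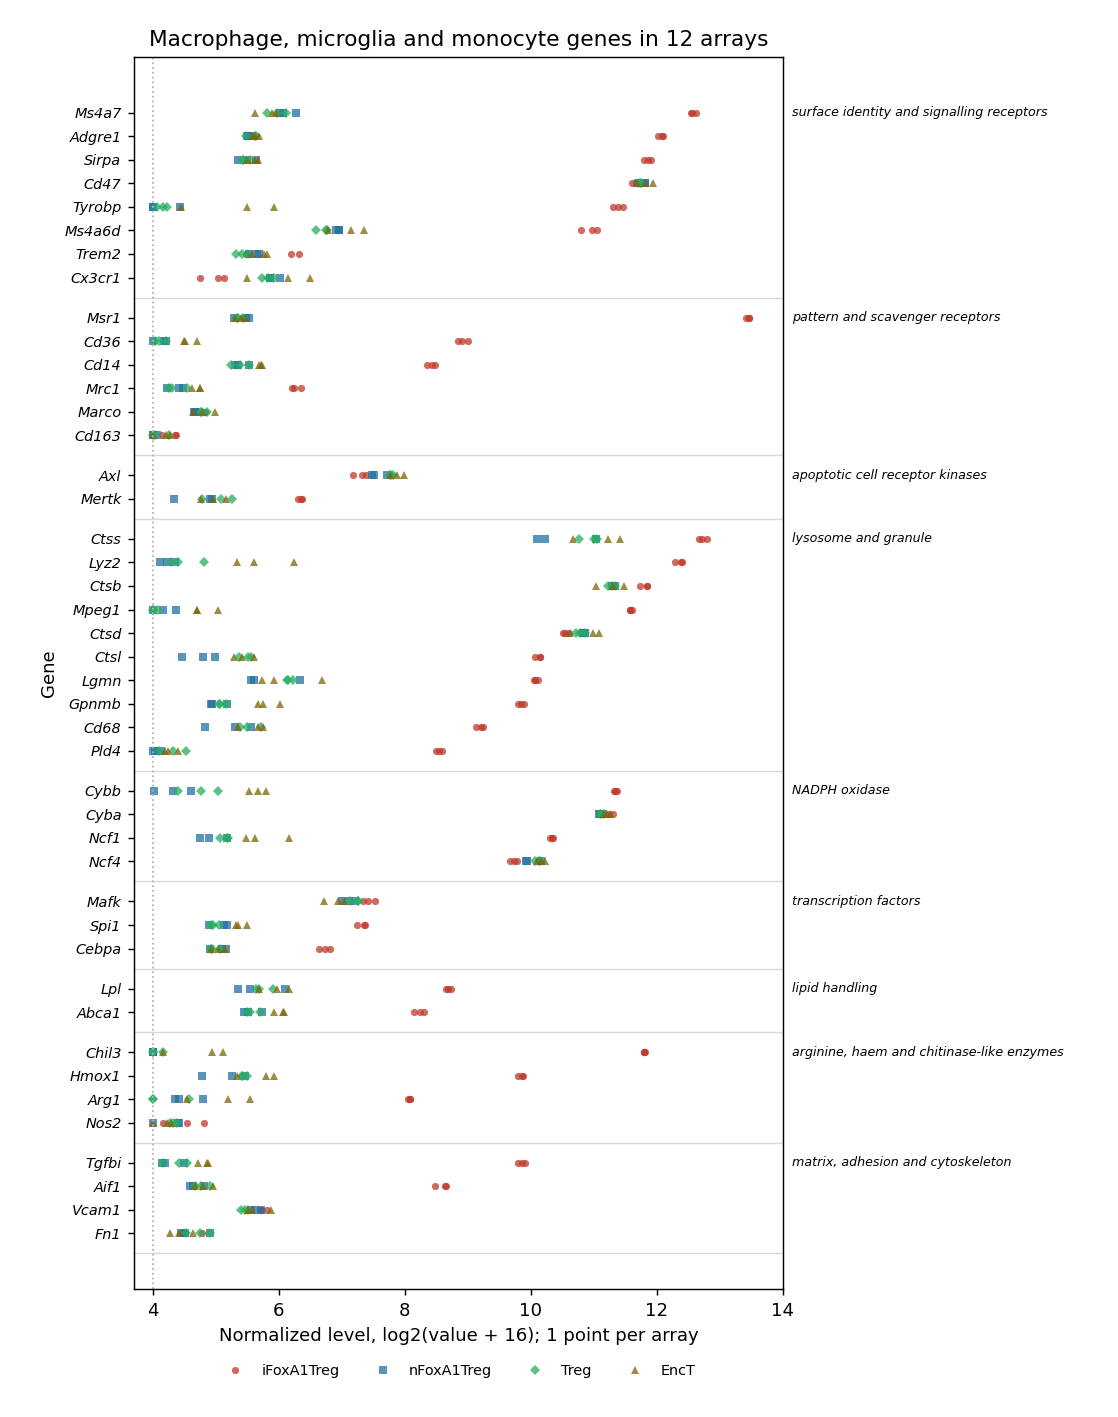
Normalized level of each of the 43 members, log2(value + 16), with 1 point per array; genes run down the page by role and the dotted line marks the floor of 4. The arrays labelled iFoxA1Treg stand far to the right for most members (Msr1 at 13.42 to 13.47), to the left for Cx3cr1, and among the others for Cyba and Marco.

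The promoters of the members were searched for short cores of the binding sites of PU.1 (GAGGAA) and C/EBP factors (TTGCNNAA), on both strands, in the 300 bases from 250 before to 50 after the start in RefSeq, build GRCm38.p6. The table held 31 windows of 28 members. GAGGAA was found in 10 of the 31 windows (32.3%) and in 28.3% of all 32851 windows. TTGCNNAA was found in 3 of the 31 (9.68%) and in 10.8% of all. Both were found in 2 windows (6.45%, against 2.92% of all), those of Cd68 and Trem2, which are shown because they hold the matches to both cores. The matches, in capitals, do not overlap, and a match is a string of letters, not a measured site. The Cd68 window lies at chr11:69666121-69666420 on the minus strand and the Trem2 window at chr17:48346151-48346450 on the plus strand.
Cd68: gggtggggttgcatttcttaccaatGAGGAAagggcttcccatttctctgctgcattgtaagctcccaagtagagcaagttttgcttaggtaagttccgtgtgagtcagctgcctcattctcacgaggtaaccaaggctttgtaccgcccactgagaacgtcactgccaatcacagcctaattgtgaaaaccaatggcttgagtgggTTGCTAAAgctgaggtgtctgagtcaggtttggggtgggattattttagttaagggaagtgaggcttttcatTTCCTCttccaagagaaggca
Trem2: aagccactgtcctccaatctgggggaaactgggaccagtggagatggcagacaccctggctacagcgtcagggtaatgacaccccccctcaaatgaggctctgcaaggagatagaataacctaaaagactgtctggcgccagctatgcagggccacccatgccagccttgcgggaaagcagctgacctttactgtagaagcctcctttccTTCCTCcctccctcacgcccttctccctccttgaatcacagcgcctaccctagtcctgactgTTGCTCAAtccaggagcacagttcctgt
The Cd68 window holds 2 matches to GAGGAA and 1 to TTGCNNAA, and the Trem2 window 1 of each. The genes themselves differed: Cd68, which encodes a lysosomal membrane glycoprotein, averaged 9.19 ± 0.056 in the arrays labelled iFoxA1Treg and 5.59 ± 0.21 in EncT (SD, n = 3 each), and was called higher there. Trem2, a lipid-sensing receptor of macrophages and microglia, averaged 6.0 ± 0.45 and 5.72 ± 0.13 in the same groups and was not called (adjusted p = 0.164).

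Of the 8 surface identity and signalling receptors, 5 were called higher in the arrays labelled iFoxA1Treg than in EncT and 2 lower. Ms4a7, a tetraspan membrane protein of macrophages, read 12.56, 12.63 and 12.55 in the arrays labelled iFoxA1Treg, 6.28, 6.01 and 6.06 in nFoxA1Treg, 5.81, 6.11 and 5.98 in Treg and 5.62, 5.96 and 5.88 in EncT. The arrays labelled iFoxA1Treg lay above all 9 others, and the difference was 6.76 against EncT (108-fold, SE 0.099, adjusted p = 4.79e-17), 6.46 against nFoxA1Treg and 6.61 against Treg. Adgre1, which encodes the macrophage antigen F4/80, read 12.09, 12.08 and 12.01 in the arrays labelled iFoxA1Treg, 5.50, 5.49 and 5.56 in nFoxA1Treg, 5.64, 5.62 and 5.48 in Treg and 5.69, 5.62 and 5.59 in EncT. Its difference was 6.43 against EncT (86.2-fold, SE 0.069, adjusted p = 1.69e-18), and the 9 other arrays lay within 5.48 to 5.69. Sirpa, an inhibitory receptor of myeloid cells, was higher by 6.26 against EncT, and Ms4a6d, another tetraspan protein, by 3.85.

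Tyrobp encodes the signalling adaptor DAP12, which carries the signal of TREM2 and other activating receptors. It read 11.30, 11.38 and 11.47 in the arrays labelled iFoxA1Treg, 4.0, 4.43 and 4.0 in nFoxA1Treg, 4.15, 4.06 and 4.21 in Treg and 5.93, 5.50 and 4.45 in EncT. Against EncT it was higher by 6.09 (SE 0.25, adjusted p = 9.00e-12) in the arrays labelled iFoxA1Treg, and 2 of the 3 nFoxA1Treg arrays were at the floor. Its partner Trem2 was called in 1 of the 3 comparisons, against Treg, by 0.58 (adjusted p = 0.00667). A second Trem2 probe set was called lower against EncT (-0.51) and against Treg, and was called against nFoxA1Treg too, so the probe sets of this gene disagree. With the mean of its probe sets, the difference against Treg was 0.057 (limma, adjusted p = 0.642).

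Cx3cr1, the fractalkine receptor of microglia and resident monocytes, went the other way. It read 5.13, 5.03 and 4.75 in the arrays labelled iFoxA1Treg, 5.86, 5.86 and 6.01 in nFoxA1Treg, 5.74, 5.92 and 5.83 in Treg and 5.50, 6.49 and 6.14 in EncT. The arrays labelled iFoxA1Treg lay below all 9 others, with differences of -1.07 against EncT (SE 0.19, adjusted p = 1.19e-04), -0.94 against nFoxA1Treg and -0.86 against Treg. Cd47, the broadly expressed ligand of SIRPα, read 11.60, 11.69 and 11.67 in the arrays labelled iFoxA1Treg, 11.81, 11.82 and 11.71 in nFoxA1Treg, 11.72, 11.75 and 11.75 in Treg and 11.69, 11.81 and 11.95 in EncT. It was lower by a small margin against EncT (difference -0.16, adjusted p = 0.0227) and was not called against the other groups. Of its other 4 probe sets, 3 were higher against EncT (0.33, 0.66 and 0.48) and 1 lower (-0.52), so no direction holds for Cd47 across its probe sets. The call was lost without EncT replicate 3 or the array labelled iFoxA1Treg replicate 1 (adjusted p of up to 0.135).

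Among the 6 pattern and scavenger receptors, 4 were called higher than in EncT. Msr1, the class A scavenger receptor, had the largest difference of all 43 members against EncT. It read 13.46, 13.47 and 13.42 in the arrays labelled iFoxA1Treg, 5.48, 5.29 and 5.53 in nFoxA1Treg, 5.35, 5.34 and 5.43 in Treg and 5.30, 5.39 and 5.46 in EncT. That is 8.07 against EncT (269-fold, SE 0.075, adjusted p = 8.67e-19), 8.02 against nFoxA1Treg and 8.08 against Treg, and the other 9 arrays overlapped. Cd36, a receptor for oxidised lipids, was higher by 4.35, Cd14, the lipopolysaccharide co-receptor, by 2.71, and Mrc1, the mannose receptor, by 1.56. Marco, a class A receptor like Msr1, was not called in any comparison and averaged 4.76 ± 0.11 in the arrays labelled iFoxA1Treg and 4.79 ± 0.18 in EncT. Cd163, the haemoglobin scavenger receptor, averaged 4.28 ± 0.13 and 4.16 ± 0.14 in the same groups. It was called against nFoxA1Treg alone, by 0.26 (adjusted p = 0.0387). That call was lost without any 1 of 5 of the 6 arrays (all but iFoxA1Treg replicate 3), with an adjusted p of up to 0.119.

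The 2 receptor kinases for apoptotic cells were called in opposite directions. Mertk read 6.36, 6.30 and 6.34 in the arrays labelled iFoxA1Treg, 4.93, 4.34 and 4.91 in nFoxA1Treg, 4.78, 5.08 and 5.25 in Treg and 5.17, 4.96 and 4.76 in EncT. Its differences were 1.38 against EncT (SE 0.16, adjusted p = 1.88e-06), 1.61 against nFoxA1Treg and 1.30 against Treg, with no overlap between the arrays labelled iFoxA1Treg and the rest. Axl read 7.17, 7.39 and 7.33 in the arrays labelled iFoxA1Treg, 7.50, 7.47 and 7.72 in nFoxA1Treg, 7.78, 7.81 and 7.77 in Treg and 7.88, 7.98 and 7.77 in EncT. It was called lower in the arrays labelled iFoxA1Treg, with differences of -0.58 against EncT (adjusted p = 1.68e-05), -0.27 against nFoxA1Treg and -0.49 against Treg. A second Axl probe set averaged 5.71 ± 0.023 in the arrays labelled iFoxA1Treg and 5.22 ± 0.049 in EncT (difference 0.49), so the probe sets of Axl go in opposite directions. The call against nFoxA1Treg was lost without nFoxA1Treg replicate 3 or the array labelled iFoxA1Treg replicate 1 (adjusted p of up to 0.0573).

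Of the 10 lysosome and granule genes, 9 were called higher against EncT and 1, Ctsd, lower. Mpeg1, which encodes the pore-forming protein perforin-2 of phagocytes, read 11.61, 11.58 and 11.57 in the arrays labelled iFoxA1Treg, 4.0, 4.16 and 4.36 in nFoxA1Treg, 4.0, 4.0 and 4.07 in Treg and 5.04, 4.70 and 4.70 in EncT. It was higher by 6.77 against EncT (SE 0.11, adjusted p = 1.47e-16), 7.41 against nFoxA1Treg and 7.56 against Treg. Lyz2, the lysozyme of macrophages and neutrophils, read 12.30, 12.38 and 12.40 in the arrays labelled iFoxA1Treg, 4.22, 4.11 and 4.35 in nFoxA1Treg, 4.81, 4.40 and 4.29 in Treg and 6.25, 5.61 and 5.33 in EncT. Its difference was 6.63 against EncT (99.3-fold, SE 0.18, adjusted p = 6.26e-14), 8.14 against nFoxA1Treg and 7.86 against Treg. For both genes the 3 EncT arrays were the next highest.

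Cathepsins are the main proteases of the lysosome, and their levels in the other groups differed from gene to gene. Ctsl, cathepsin L, read 10.07, 10.15 and 10.15 in the arrays labelled iFoxA1Treg, 4.46, 4.99 and 4.79 in nFoxA1Treg, 5.37, 5.50 and 5.55 in Treg and 5.60, 5.41 and 5.29 in EncT, and was higher by 4.69 against EncT. Ctss, cathepsin S, which trims the invariant chain in antigen presenting cells, read 12.79, 12.67 and 12.72 in the arrays labelled iFoxA1Treg, 10.10, 10.23 and 11.04 in nFoxA1Treg, 11.05, 11.00 and 10.76 in Treg and 11.23, 11.42 and 10.68 in EncT. It was well above the floor in every group, and its difference against EncT was 1.62 (SE 0.20, adjusted p = 4.09e-06). Ctsb, cathepsin B, was higher by 0.54, and of its other probe sets 1 was higher against EncT by 1.06 and 2 were lower (-0.85 and -0.53). Ctsd, cathepsin D, read 10.52, 10.54 and 10.61 in the arrays labelled iFoxA1Treg, 10.83, 10.85 and 10.86 in nFoxA1Treg, 10.72, 10.79 and 10.86 in Treg and 10.62, 11.08 and 10.99 in EncT, and was called lower with a difference of -0.34 against EncT (adjusted p = 0.00319). Its lowest EncT array lay just above its highest array labelled iFoxA1Treg. The others were higher against EncT: Pld4, an endolysosomal nuclease, by 4.26, Gpnmb, a glycoprotein of lipid-laden macrophages, by 4.03, Lgmn, the asparaginyl protease legumain, by 3.96, and Cd68 by 3.60.

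Of the 4 subunits of the NADPH oxidase, 2 were called higher than in EncT and 1 lower. Cybb, the catalytic subunit of the phagocyte oxidase, read 11.32, 11.36 and 11.34 in the arrays labelled iFoxA1Treg, 4.01, 4.31 and 4.61 in nFoxA1Treg, 4.76, 4.40 and 5.02 in Treg and 5.67, 5.79 and 5.52 in EncT. It was higher by 5.68 against EncT (51.2-fold, SE 0.15, adjusted p = 5.44e-14), 7.03 against nFoxA1Treg and 6.61 against Treg. Ncf1, the cytosolic organiser subunit, read 10.36, 10.33 and 10.31 in the arrays labelled iFoxA1Treg, 4.74, 5.18 and 4.89 in nFoxA1Treg, 5.18, 5.06 and 5.17 in Treg and 6.16, 5.62 and 5.47 in EncT, and was higher by 4.58 against EncT (SE 0.15, adjusted p = 3.67e-13). Cyba, the membrane partner of Cybb, was not called and averaged 11.23 ± 0.094 in the arrays labelled iFoxA1Treg, 11.11 ± 0.034 in nFoxA1Treg, 11.13 ± 0.033 in Treg and 11.21 ± 0.041 in EncT. Ncf4, another cytosolic subunit, read 9.67, 9.79 and 9.73 in the arrays labelled iFoxA1Treg, 9.93, 9.94 and 10.17 in nFoxA1Treg, 10.13, 10.14 and 10.06 in Treg and 10.16, 10.22 and 10.10 in EncT. The arrays labelled iFoxA1Treg lay below all others, with differences of -0.43 against EncT (SE 0.063, adjusted p = 2.11e-05), -0.28 against nFoxA1Treg and -0.38 against Treg.

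All 3 transcription factors were called higher than in EncT, at smaller differences than most of the receptors above that were called higher. Spi1, the gene of PU.1, read 7.23, 7.36 and 7.35 in the arrays labelled iFoxA1Treg, 5.17, 4.89 and 5.12 in nFoxA1Treg, 4.93, 5.05 and 4.96 in Treg and 5.32, 5.49 and 5.35 in EncT. Its difference was 1.93 against EncT (SE 0.099, adjusted p = 1.15e-10), 2.25 against nFoxA1Treg and 2.34 against Treg. Cebpa was higher by 1.70 against EncT, and its other 9 arrays lay at 4.90 to 5.16. Mafk, a small Maf protein found in many cell types, read 7.34, 7.52 and 7.42 in the arrays labelled iFoxA1Treg, 7.11, 7.01 and 7.21 in nFoxA1Treg, 7.13, 7.26 and 7.26 in Treg and 6.71, 7.03 and 6.94 in EncT. It was higher by 0.53 against EncT (adjusted p = 1.13e-04) and was not called against Treg (difference 0.21, adjusted p = 0.0617).

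Both lipid genes were higher. Lpl, lipoprotein lipase, read 8.73, 8.68 and 8.65 in the arrays labelled iFoxA1Treg, 5.35, 5.54 and 6.10 in nFoxA1Treg, 5.68, 5.91 and 5.63 in Treg and 5.97, 6.15 and 5.68 in EncT, a difference of 2.75 against EncT (SE 0.16, adjusted p = 5.42e-10). Abca1, the cholesterol exporter, was higher by 2.21, although another of its probe sets was called the other way against EncT. Of the 4 enzymes, Chil3, a chitinase-like protein of alternatively activated macrophages and neutrophils, read 11.81, 11.80 and 11.80 in the arrays labelled iFoxA1Treg, 4.0, 4.0 and 4.0 in nFoxA1Treg, 4.16, 4.0 and 4.0 in Treg and 4.15, 4.93 and 5.11 in EncT. The nFoxA1Treg arrays were at the floor, so no fold is given, and the log2(value + 16) difference was 7.07 against EncT (SE 0.17, adjusted p = 1.77e-14). Arg1, the arginase of alternatively activated macrophages, read 8.05, 8.09 and 8.08 in the arrays labelled iFoxA1Treg, 4.35, 4.80 and 4.41 in nFoxA1Treg, 4.0, 4.0 and 4.57 in Treg and 4.54, 5.19 and 5.54 in EncT, and was higher by 2.98 against EncT. Hmox1, the inducible haem oxygenase, was higher by 4.16. Nos2, the inducible nitric oxide synthase that competes with arginase for arginine, averaged 4.51 ± 0.33 in the arrays labelled iFoxA1Treg and 4.17 ± 0.15 in EncT, and was not called.

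Tgfbi, a matrix protein of macrophages and stroma, read 9.79, 9.91 and 9.87 in the arrays labelled iFoxA1Treg, 4.14, 4.19 and 4.49 in nFoxA1Treg, 4.42, 4.16 and 4.55 in Treg and 4.87, 4.86 and 4.71 in EncT. It was higher by 5.04 against EncT (SE 0.12, adjusted p = 1.10e-14), 5.58 against nFoxA1Treg and 5.48 against Treg. Aif1, the actin-binding protein IBA1 used to stain microglia, was higher by 3.79 against EncT. Fn1, fibronectin, was not called and averaged 4.58 ± 0.17 in the arrays labelled iFoxA1Treg and 4.44 ± 0.18 in EncT. Vcam1, an adhesion molecule, was called against Treg alone (0.29, adjusted p = 0.0274) by the probe set chosen. Its other 2 probe sets were higher against EncT, by 3.16 and 1.71, so the call for Vcam1 depends on the probe set. The call against Treg was lost without Treg replicate 1, Treg replicate 2 or the array labelled iFoxA1Treg replicate 3 (adjusted p of up to 0.0849). In all, 20 members have several probe sets, and for 12 of these every probe set was called the same way against EncT.

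Markers of some other cell types moved with these genes in the arrays labelled iFoxA1Treg. All 7 measured macrophage-defining markers were higher than in EncT, among them Csf1r, the receptor for the macrophage growth factor, at 10.01 ± 0.091 in the arrays labelled iFoxA1Treg and 5.25 ± 0.12 in EncT (SD, n = 3 each). Their summed signal was 15323 to 16192 units in the arrays labelled iFoxA1Treg, 80.2 to 110.7 units in nFoxA1Treg, 109.1 to 130.7 units in Treg and 146.4 to 187.5 units in EncT. C1qa, which encodes a complement protein of tissue macrophages, was at the floor in the last 3 groups. The list shares Adgre1, Mertk, Lyz2 and Cd68 with the members. All 11 measured neutrophil markers were higher too, with sums of 53097 to 53253 units in the arrays labelled iFoxA1Treg and 328.0 to 668.7 units in EncT, and S100a8 was higher by 9.25. All 13 measured B cell markers were higher, with sums of 36460 to 39140 units against 314.9 to 433.8 units in EncT, and Cd79b was higher by 7.24. The T cell markers summed to 6649 to 6945 units in the arrays labelled iFoxA1Treg and 27130 to 29402 units in EncT. Of 11 dendritic cell markers 6 were higher and 2 lower, and Zbtb46, a dendritic lineage factor, was not called (difference 0.22). Of 7 natural killer and CD8 T cell markers 5 were higher and 1 lower. Their summed signal was lower, at 1270 to 1326 units in the arrays labelled iFoxA1Treg against 1673 to 5079 units in EncT. Of 3 erythroid markers 1 was higher, of 8 fibroblast and endothelial markers 4 were higher and 1 lower, and of 8 neuron and glia markers 3 were lower. Beside these list counts, 30.0% of all genes were called higher and 29.5% lower against EncT. The part of these cell types in the levels of Lyz2, Chil3, Cybb and the other members was not tested.

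**Figure D2:**
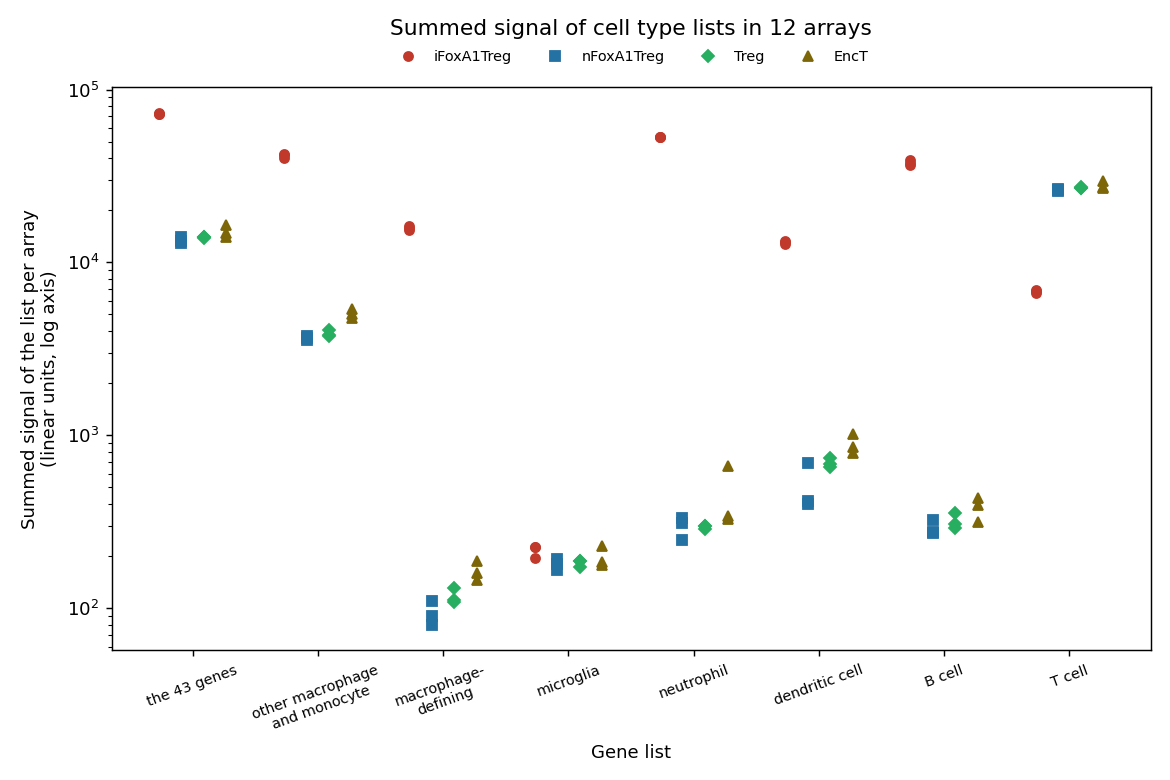
Summed linear signal above the floor of each gene list in each of the 12 arrays, on a log axis, with 1 point per array. The arrays labelled iFoxA1Treg lie above the rest for the 43 members and the macrophage-defining, neutrophil, dendritic and B cell lists, below them for T cell markers, and among them for microglia markers.

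Microglia markers went both ways. Of 9 measured, 5 were higher in the arrays labelled iFoxA1Treg than in EncT and 2 lower, where 30.0% and 29.5% of all genes were, and the sums were 196.4 to 226.7 units in those arrays and 177.0 to 229.0 units in EncT, which overlap. Tmem119, the most used marker of microglia, averaged 4.44 ± 0.23 in the arrays labelled iFoxA1Treg and 4.73 ± 0.096 in EncT (difference -0.29, adjusted p = 0.0433 by limma). Gpr34 was lower, with a difference of -1.46, and Siglech and Sall1 were higher by 1.27 and 1.19. Among the members known from microglia, Aif1 was higher than in EncT and Cx3cr1 was lower. Trem2 was called higher against Treg alone by the probe set chosen, and lower against Treg by its other probe set. Of 31 other macrophage and monocyte genes measured, 26 were higher and 3 lower than in EncT, led by Fcgr1, the high-affinity IgG receptor, at 6.91. Of 18 other lysosome genes, 13 were higher and 2 lower, led by Ctsh at 4.27.

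Among the 3 groups with high Cd4, most members were near the floor, and those called were nearly all lower in nFoxA1Treg and Treg than in EncT. Against EncT, limma called 16 of the 43 members lower in nFoxA1Treg (7.53% of all genes were) and 0 higher (5.55% of all genes). An unadjusted p under 0.05 in either direction was found for 22 members, beside 4554 of all 18193 genes. In Treg limma called 14 lower and 1 higher than in EncT, beside 6.87% and 4.05% of all genes. With arrays that did not overlap, 18 members were lower and 1 higher in nFoxA1Treg (14.3% and 12.8% of all genes), and 15 lower and 1 higher in Treg (15.2% and 11.6%). The median difference of the members was -0.24 in nFoxA1Treg and -0.12 in Treg, where the medians over all genes were -0.00012 and -0.0015. Both comparisons use the same EncT arrays, so their members are given side by side and not as separate evidence. When the 9 arrays were normalized and fitted without those labelled iFoxA1Treg, 12 members were lower in nFoxA1Treg and 11 in Treg. In that fit 6.52% and 5.58% of all genes were lower.

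Lyz2 had the largest difference in both. From the values above, no nFoxA1Treg or Treg array reached an EncT array. The difference was -1.50 in nFoxA1Treg (SE 0.18, adjusted p = 1.39e-04) and -1.23 in Treg (SE 0.18, adjusted p = 7.71e-04). For Tyrobp it was -1.15 in nFoxA1Treg (adjusted p = 0.00816) and -1.15 in Treg (adjusted p = 0.0099), with EncT replicate 3 just above the highest nFoxA1Treg array. Of the 4 oxidase subunits, Cybb and Ncf1 were called lower in both groups. Cybb differed by -1.35 in nFoxA1Treg (SE 0.15, adjusted p = 7.65e-05) and -0.93 in Treg (SE 0.15, adjusted p = 0.00161), and Ncf1 by -0.81 and -0.61. Cyba differed by -0.10 and -0.08 and Ncf4 by -0.15 and -0.05, and neither was called. In linear signal with no offset, EncT held 0.742% of the Lyz2 signal of the arrays labelled iFoxA1Treg and 1.35% of the Cybb signal.

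**Figure D3:**
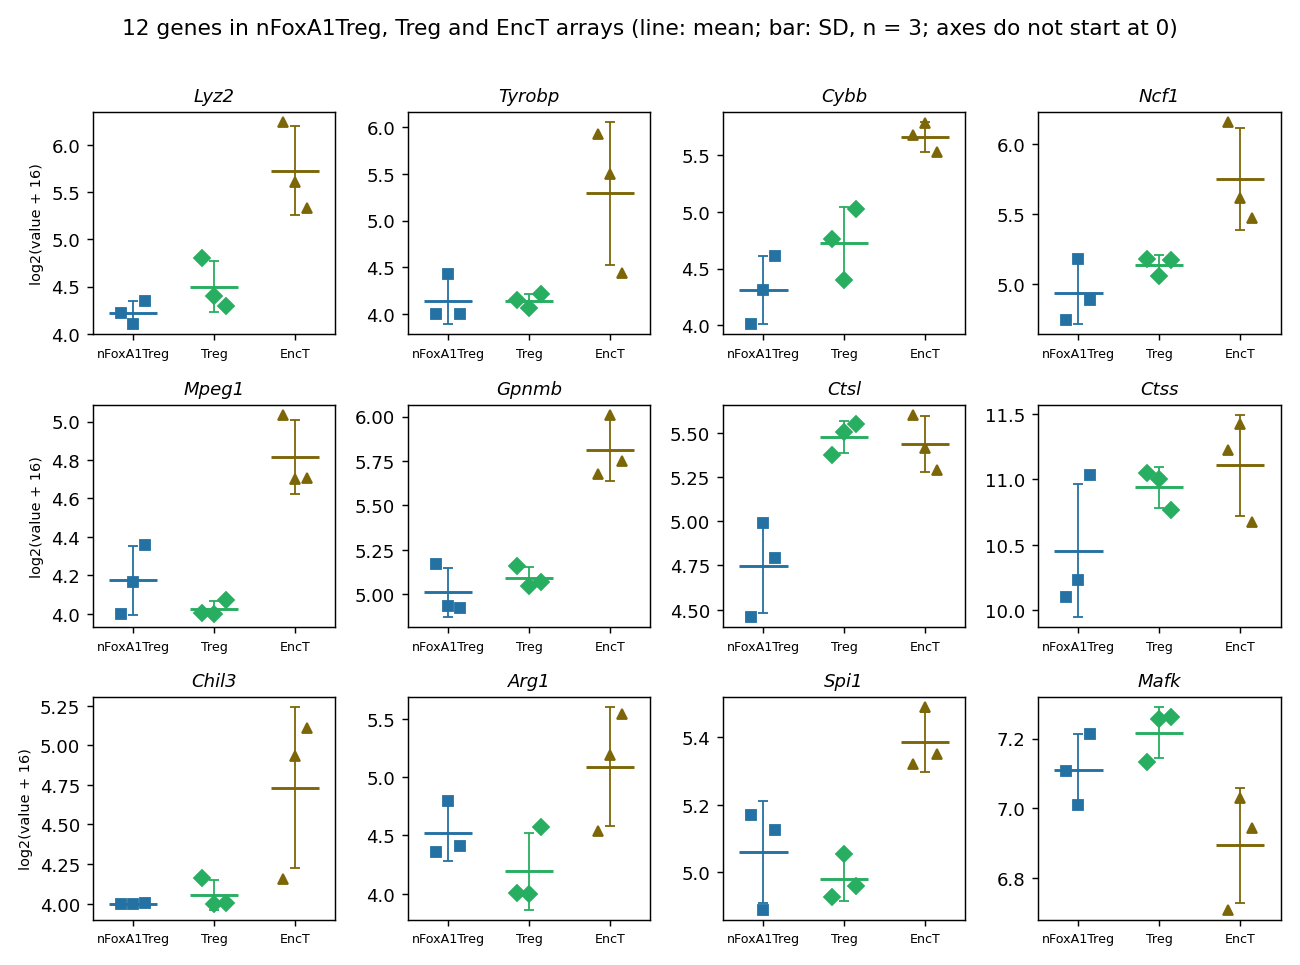
Levels of 12 members in the nFoxA1Treg, Treg and EncT arrays, log2(value + 16), with points for arrays, a line for the mean and a bar for the SD (n = 3); each panel has its own axis, which does not start at 0. EncT stands above both other groups for Lyz2, Cybb, Ncf1, Mpeg1, Gpnmb and Spi1, the nFoxA1Treg arrays are the lowest for Ctsl, and the EncT arrays average lowest for Mafk.

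Of the 10 lysosome and granule genes, 5 were called lower than EncT in nFoxA1Treg and 3 in Treg (Lyz2, Mpeg1 and Gpnmb), and of the 2 lipid genes Abca1 was called lower in each. Mpeg1 differed by -0.64 in nFoxA1Treg (adjusted p = 0.00151) and -0.79 in Treg (adjusted p = 4.92e-04). Gpnmb read 5.17, 4.94 and 4.93 in nFoxA1Treg, 5.16, 5.04 and 5.07 in Treg and 5.67, 6.01 and 5.75 in EncT. EncT stood clear of both, and the difference was -0.80 in nFoxA1Treg (SE 0.10, adjusted p = 1.84e-04) and -0.72 in Treg (SE 0.10, adjusted p = 5.07e-04). The scavenger receptor Cd36 read 4.18, 4.0 and 4.20 in nFoxA1Treg, 4.20, 4.09 and 4.03 in Treg and 4.48, 4.69 and 4.51 in EncT, with differences of -0.44 and -0.45. Abca1 read 5.51, 5.73 and 5.45 in nFoxA1Treg, 5.54, 5.50 and 5.70 in Treg and 5.91, 6.07 and 6.08 in EncT, with differences of -0.46 and -0.44. For these 4 genes no nFoxA1Treg or Treg array reached an EncT array. The other 2 Abca1 probe sets were called in neither comparison (limma, adjusted p of at least 0.131). Of the 20 members with several probe sets, 7 in nFoxA1Treg and 6 in Treg had a call that another probe set did not share.

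Chil3, Tgfbi, Spi1 and Cd14 were called lower in both groups too. Chil3, at the floor in nFoxA1Treg, differed by -0.73 in nFoxA1Treg (adjusted p = 0.0118) and -0.68 in Treg (adjusted p = 0.0212), where the highest Treg array reached the lowest EncT array. Tgfbi differed by -0.54 and -0.44, and Spi1 by -0.33 (adjusted p = 0.0426) and -0.41 (adjusted p = 0.0169). Cd14 read 5.30, 5.53 and 5.35 in nFoxA1Treg, 5.37, 5.25 and 5.53 in Treg and 5.73, 5.68 and 5.72 in EncT, and differed by -0.32 and -0.33. Arg1 was called in Treg (-0.89, adjusted p = 0.0146) with overlapping arrays, and in nFoxA1Treg it differed by -0.57 (adjusted p = 0.0975). Ms4a6d read 6.90, 6.96 and 6.95 in nFoxA1Treg, 6.75, 6.59 and 6.76 in Treg and 7.35, 7.15 and 6.78 in EncT, and was called in Treg (-0.39, adjusted p = 0.0379). Mafk was the member called higher, in Treg by 0.32 (adjusted p = 0.0343).

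Ctsl, Ctss, Hmox1 and Axl were called lower than EncT in nFoxA1Treg. Ctsl differed by -0.69 in nFoxA1Treg (SE 0.12, adjusted p = 0.00186) and by 0.04 in Treg (adjusted p = 0.895). Ctss differed by -0.65 (adjusted p = 0.0451), although nFoxA1Treg replicate 3 lay among the EncT arrays. Hmox1 read 4.78, 5.26 and 5.46 in nFoxA1Treg, 5.42, 5.41 and 5.50 in Treg and 5.80, 5.92 and 5.34 in EncT, and differed by -0.52 (adjusted p = 0.0402), also with overlap. Axl differed by -0.31 (adjusted p = 0.0223) with none. Adgre1 and Msr1, 2 of the most used macrophage markers, were called in neither comparison: Adgre1 differed by -0.12 in nFoxA1Treg and -0.06 in Treg, and Msr1 by 0.05 and -0.01.

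**Figure D4:**
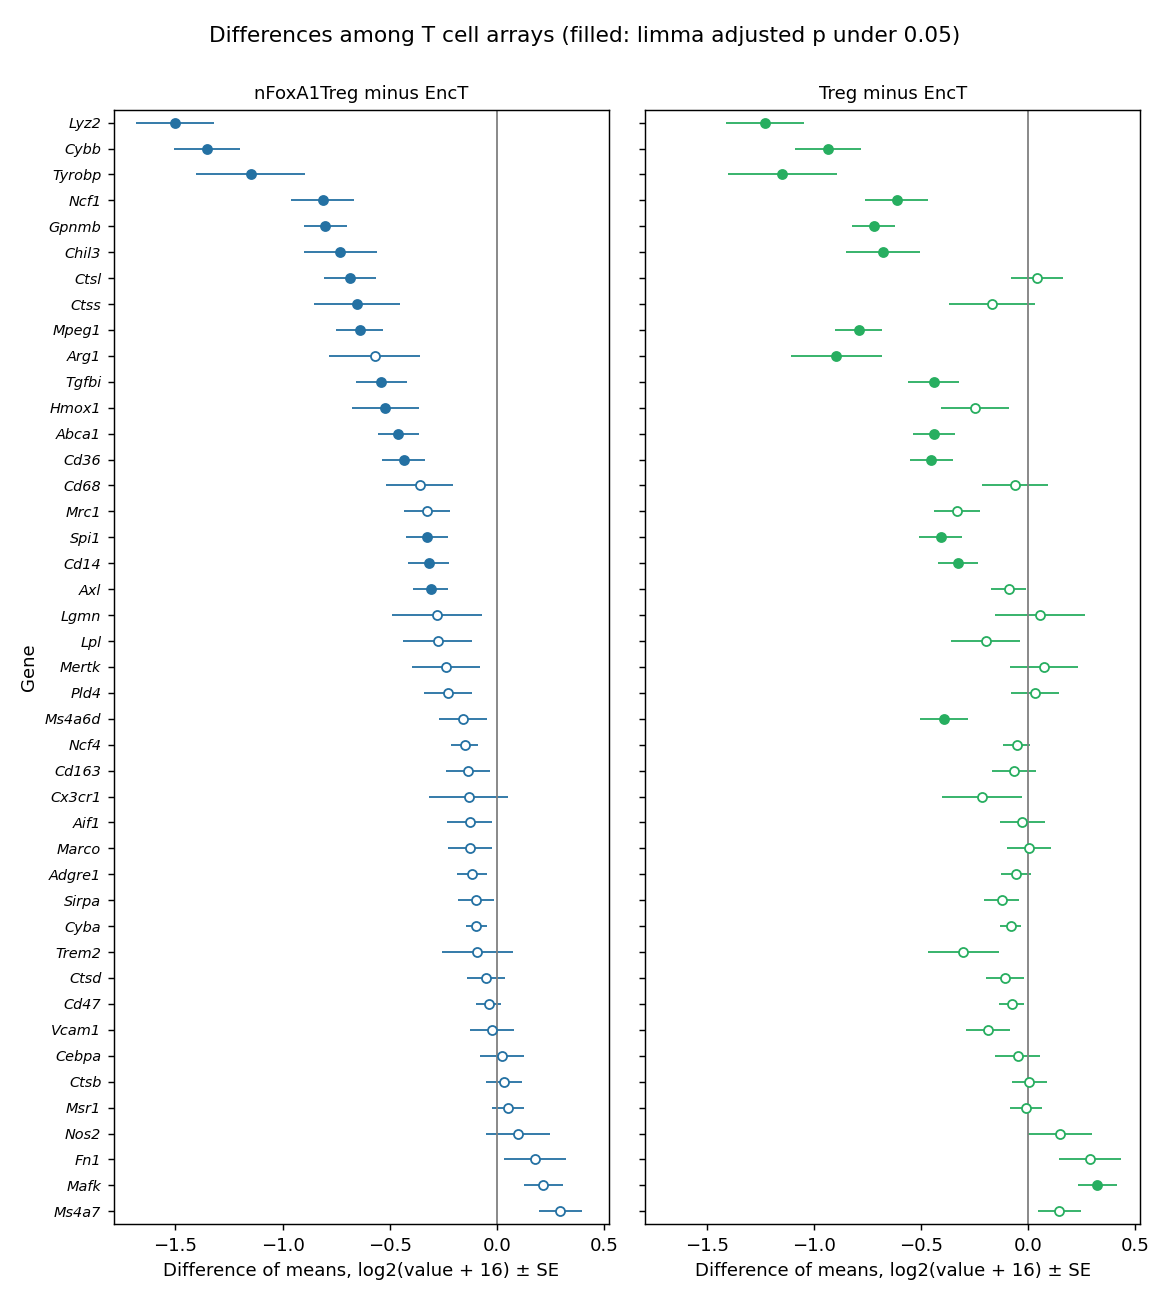
Difference of group means of each member on the log2(value + 16) scale, nFoxA1Treg minus EncT at left and Treg minus EncT at right, with bars for the SE; filled points passed limma's adjusted p under 0.05. Most points lie left of 0 in both panels, with Lyz2 farthest at -1.50 in nFoxA1Treg and -1.23 in Treg, and Ctsl at -0.69 and 0.04.

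These smaller calls rested on single arrays more than those of Lyz2. In nFoxA1Treg, 10 of the 16 calls held whichever array was left out, those of Abca1, Chil3, Ctsl, Cybb, Gpnmb, Lyz2, Mpeg1, Ncf1, Tgfbi and Tyrobp, while Spi1 was lost in each of 6 cases and Cd36, Axl, Cd14, Ctss and Hmox1 in some. In Treg, the count of lower members was 7 without Treg replicate 2 and 9 without Treg replicate 1. Lower calls over all genes fell too, to 3.49% and 4.75%, from 6.87% with all arrays. In Treg the calls of Cd36, Cybb, Gpnmb, Lyz2, Mpeg1 and Tyrobp held in all 6 cases. The Mafk call was lost in 4 of the 6, without EncT replicate 1, EncT replicate 3, Treg replicate 2 or Treg replicate 3. EncT replicate 1 had the highest Lyz2, Tyrobp, Ncf1 and Mpeg1 of its group. It stood apart in other markers as well, with 668.7 units of summed neutrophil markers against 328.0 and 343.6 in EncT replicates 2 and 3, and 1673 units of natural killer and CD8 T cell markers against 4671 and 5079. Without it the Lyz2 difference was -1.24 in nFoxA1Treg and -0.97 in Treg, and that of Tyrobp was -0.83 in both. Members called lower then numbered 14 and 13, beside 5.94% and 5.21% of all genes.

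Other genes of the same cells went the same way. Of 31 other macrophage and monocyte genes, 14 were lower and 0 higher in nFoxA1Treg than in EncT, and 13 were lower and 1, Apoe, higher in Treg. The β-glucan receptor Clec7a differed by -2.18 in nFoxA1Treg and -1.66 in Treg, and the C-type lectin Clec4e by -1.70 and -1.33. Of 18 other lysosome genes, 3 were lower in each (Ctsh, Ctsa and Npc2) and 0 higher, and of 9 microglia markers none was called in either. Of 11 dendritic cell markers, 4 were lower in nFoxA1Treg (Ccl22, Cd74, H2-Aa and H2-Ab1) and 7 were not called. In Treg, 2 were lower (Cd74 and H2-Ab1) and 9 were not called. Their sums were 402.6 to 687.9 units in nFoxA1Treg, 655.7 to 743.9 units in Treg and 789.7 to 1012 units in EncT. Neutrophil markers had 1 of 11 lower in nFoxA1Treg, and 2 lower and 1 higher in Treg. B cell markers had 2 of 13 lower in nFoxA1Treg and 0 in Treg. Over all genes, 7.53% were lower in nFoxA1Treg and 6.87% in Treg. Of the 7 macrophage-defining markers, Lyz2 and Csf1r were lower in nFoxA1Treg and Lyz2 in Treg. Of the T cell markers 3 of 13 were lower in nFoxA1Treg and 4 in Treg, with differences no larger than 0.39 in size. The part of such cells in the member differences was not tested.

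Between nFoxA1Treg and Treg, limma called 0 of the 43 members in either direction, where 0% of all genes were called higher and 0.0220% lower. At an unadjusted p under 0.05 there were 5 members (Axl, Ctss, Ctsl, Pld4 and Cybb), beside 797 of all 18193 genes. The median difference of the members was -0.054, and 0.0050 over all genes. Ctsl came closest: from the values above, its 3 nFoxA1Treg arrays lay below all 3 Treg arrays, by -0.73 (SE 0.12, adjusted p = 0.0769). It passed the threshold in 3 of 19 other settings, 1 of them without nFoxA1Treg replicate 2 (adjusted p = 0.0322), and its adjusted p ranged between 0.0249 and 0.641 over all of them. Another 5 members had arrays that did not overlap, which makes 3 higher and 3 lower in nFoxA1Treg with Ctsl, beside 6.30% and 4.77% of all genes. A call that was missed with 3 arrays a group does not show that the 2 groups are alike in these genes.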

How the data were processed

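Total RNA was taken with Trizol, treated with DNase and amplified by a 3′ one-cycle protocol, per the labels' protocols. The deposited values, 1 column per array, are on a log2 scale, as their range shows; per the submitters' processing notes the authors used PLIER, a method that combines probe intensities into 1 value for each probe set. The sources used here give no version, and they name no normalization across arrays. The depth of an array is not a count of reads, and the 3 arrays a group limit the precision.

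The log2 values were raised to linear signal, 16 was added, and log2 values were quantile normalized. Probe sets with 1 gene symbol (34945, with 932 naming several and 9160 none) were kept, 1 per gene, without a filter on low values. limma 3.58.1 in R 4.3.3 fitted 4 group means with an intensity trend (8 residual degrees of freedom, 6 comparisons). It was also run on simulated data, whose outcome is not given here and is not used as support. Replicate numbers were not taken to pair the arrays: same-numbered deviations correlated at -0.16 to 0.14, and no comparison had all pairs over 0.1. Values in every array are given for the member with the largest difference in each role, members called among nFoxA1Treg, Treg and EncT, and members lower in the arrays labelled iFoxA1Treg. Of other lists, members with large called differences are named. Alternatives changed the scale, normalization, filter, probe set, arrays, test and block. The members and lists were chosen with earlier results of these data known.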

Additional observations from a re-analysis of the deposited data

How the results depend on the processing

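The calls for the arrays labelled iFoxA1Treg held in nearly all settings. Of the 36 members called against EncT, 32 kept their call in every setting that tested them. The same held for 32 of 36 against nFoxA1Treg and 32 of 36 against Treg. Mrc1, which the filter dropped, is counted on the other settings. The count of higher members was 30 to 32 against EncT over 12 other settings, and 31 to 33 with 1 array left out. Of the genes tested, 23.5% to 35.1% were higher in the former and 27.6% to 29.4% in the latter. The mean of all probe sets of a gene left 3 lower against EncT (29.3% of all genes). That setting turned the sign for Cd47 against EncT (0.16) and for Axl against nFoxA1Treg (0.18) and Treg (0.022). Among the groups with high Cd4 fewer calls held: 5 of 16 in nFoxA1Treg (Ctsl, Cybb, Gpnmb, Lyz2 and Ncf1) and 3 of 15 in Treg (Gpnmb, Lyz2 and Mpeg1) kept theirs in every setting. With only the arrays of the 2 groups, 9 were lower in nFoxA1Treg and 7 in Treg, and calls over all genes were 979 (2380 in the main setting) and 962 (1985), with fewer arrays in the fit; array weights gave 3400 and 3068. In Treg, 9 were lower on the deposited scale and 9 with an offset of 64 (6.28% and 6.9% of all genes). Mafk was lost in Treg (0 higher) without normalization, with median centring, with only the 2 groups, without the trend and in the 9 arrays. With 1 array left out, lower members numbered 11 to 17 in nFoxA1Treg and 7 to 13 in Treg, and higher members 0 to 1 in each. Of all genes, 4.57% to 8.64% were lower in nFoxA1Treg and 3.49% to 8.35% in Treg in the same fits. Between nFoxA1Treg and Treg, 1 member (Ctsl) was lower without normalization and with array weights, and 0 to 1 with 1 array left out. With the replicate block, 12 members were lower in nFoxA1Treg and 13 in Treg than in EncT (7.25% and 6.33% of all genes). In the arrays labelled iFoxA1Treg, 31 were higher and 5 lower than in EncT (29.8% and 29.4% of all genes). The block ended the calls of Cd14 (adjusted p = 0.0544 in nFoxA1Treg and 0.0549 in Treg by limma) and, in nFoxA1Treg, of Ctss, Hmox1 and Spi1. Every one of 6 arrays correlated best with its own number in Treg and EncT, 5 of 6 in the arrays labelled iFoxA1Treg and EncT, 2 of 6 in those and Treg, and 0 in the other 3 comparisons. The filter dropped 5 members (Marco, Cd163, Mrc1, Nos2 and Fn1). Of the 38 members it kept, 8 passed only through the arrays labelled iFoxA1Treg. Where no reason is given, the cause was not tested. Signals near the floor limit what can be read for Chil3, Mpeg1 and Tyrobp in nFoxA1Treg and Treg.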
